A study of Mus musculus with 8 samples.

Results

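The products that Sertoli cells secrete or carry on their surface were followed in cells made from mouse embryonic stem cells (ESCs). 8 genes were taken from the 46078 genes listed in the deposited counts: Amh (anti-Müllerian hormone), Inha and Inhbb (the alpha and beta B subunits of inhibin), Fshr (the receptor for follicle-stimulating hormone, FSH), Ptgds (prostaglandin D2 synthase), Clu (clusterin), Cst9 (a cystatin) and Vnn1 (vanin 1). They were chosen by name, as genes known from Sertoli cells, and each was matched to 1 Ensembl gene ID in GENCODE M21. RNA sequencing covered 4 groups of 2 libraries, which the series describes as biological duplicates. The tcESC group was an XY ESC line of male embryos carrying the tesco-cfp transgene, in which the core of the testis enhancer of Sox9 drives eCFP. The tc;Sf1ESC group was 1 G418-selected clone of that line that overexpressed a mouse Sf1 transgene (Sf1 is the protein of the gene Nr5a1), and both lines were grown in N2B27 with 2iLIF. The SCLC group was CFP-positive cells sorted at day 12 from tc;Sf1ESCs that had been treated with CHIR99021 and TTNPB and then with CHIR99021, BMP7 and FGF9, so these cells carried both transgenes. The tod-PGCLC group was GFP-positive primordial germ cell-like cells from another XY ESC line, which carries Prdm1-gfp, sorted at day 6 of organoid culture with cells made from the tc;Sf1ESCs. That line was first made into epiblast-like cells with bFGF and activin A, and the organoids were grown with CHIR99021. For this last group the ESC line, the treatment and the cell type cannot be told apart.

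Sertoli cells are the somatic cells that line the seminiferous tubule and nurse the germ cells. In the fetal testis they secrete AMH, which makes the Müllerian duct regress through the receptor AMHR2. Inhibin is a dimer of the alpha subunit with a beta subunit, whereas a dimer of beta subunits is activin, and inhibin lowers FSH release while activin raises it. FSH acts on Sertoli cells through FSHR and cAMP. Sf1, GATA4 and SOX9 are known to activate Amh, and Sf1 is known to act at the Inha promoter.

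Promoter windows of 250 bases before to 50 bases after the RefSeq start (GRCm38.p6) were found for 5 of the 8 genes, and 3 are shown because they belong to the inhibin subunits, which behaved differently in the cells that overexpressed Sf1, and to the receptor, which was not detected. Capitals mark a searched motif. The windows lie at chr1:75507359-75507658 on the plus strand for Inha, chr1:119422199-119422498 on the minus strand for Inhbb and chr17:89200626-89200925 on the minus strand for Fshr. The RefSeq start of Inha and the whole Inha window lie inside the gene as GENCODE places it, which starts at 75507077.
Inha: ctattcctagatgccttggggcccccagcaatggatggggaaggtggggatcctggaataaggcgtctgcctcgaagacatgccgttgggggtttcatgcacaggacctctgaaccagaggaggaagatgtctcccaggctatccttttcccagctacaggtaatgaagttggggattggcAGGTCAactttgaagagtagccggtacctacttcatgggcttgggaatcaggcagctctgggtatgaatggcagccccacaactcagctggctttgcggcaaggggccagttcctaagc
Inhbb: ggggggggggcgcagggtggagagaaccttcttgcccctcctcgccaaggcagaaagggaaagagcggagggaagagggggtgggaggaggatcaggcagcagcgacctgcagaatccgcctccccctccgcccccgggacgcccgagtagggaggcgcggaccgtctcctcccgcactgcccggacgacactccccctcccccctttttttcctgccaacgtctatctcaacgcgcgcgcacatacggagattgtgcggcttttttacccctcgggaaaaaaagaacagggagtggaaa
Fshr: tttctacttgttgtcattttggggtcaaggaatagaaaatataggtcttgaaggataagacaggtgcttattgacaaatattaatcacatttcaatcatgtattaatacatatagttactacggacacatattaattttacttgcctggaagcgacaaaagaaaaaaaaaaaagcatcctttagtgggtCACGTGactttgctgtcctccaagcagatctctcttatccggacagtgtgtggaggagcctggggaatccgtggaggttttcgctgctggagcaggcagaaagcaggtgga

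6 motifs were searched on both strands. The Inha window holds AGGTCA, the half-site bound by nuclear receptors such as Sf1, 69 bases before the RefSeq start. The match lacks the 2 further bases of the longer form CAAGGTCA that contains it. It lies inside the gene as GENCODE places it, not upstream of it. AGGTCA is found in 16.3% of the 32851 mouse promoter windows and CAAGGTCA in 1.56%. The Fshr window holds the E-box CACGTG 61 bases before the start, as do 7.15% of all windows. None of the 6 motifs was found in the windows of Inhbb, Ptgds or Cst9. The others searched were AACAAT of the Sox factors (10.7% of all windows), AGATAA of the Gata factors (11.2%) and the cAMP response element TGACGTCA (1.79%). These are matches of letters only. Windows were not found for Amh, Clu and Vnn1. 

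The libraries held 25411033 to 30680191 counts on genes. At this depth 3 counts, the smallest number taken as measurable, equal 0.0975 to 0.118 CPM (the usual scaling of counts by library size), and this limit covers counting error only. CPM were scaled with edgeR's TMM factors. Nr5a1, the overexpressed gene, had 1 count in 1 tcESC library and 0 in the other, 52 and 30 in tc;Sf1ESCs, 341 and 535 in SCLCs and 6 and 5 in tod-PGCLCs. The counts do not separate the transgene from the endogenous gene. A pair of replicates differed least in tc;Sf1ESCs and most in SCLCs (SD of the log2 difference 0.310 and 0.518).

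The SCLC label was checked against markers. Of 14 Sertoli transcription factors, 13 had at least 3 counts in both SCLC libraries, as 10 or 11 had in each ESC library and 11 and 13 in the tod-PGCLC libraries, and Sry was at 0 in all 8 libraries. Of the 11 with enough counts for a test, 6 were higher and 3 lower in SCLCs than in tcESCs, and 7 higher and 3 lower than in tc;Sf1ESCs. These counts are no independent check: Emx2 and Sox9 had enough counts only through the SCLC libraries, Nr5a1 is the gene of the Sf1 transgene, and the enhancer of Sox9 drove the CFP used to sort the cells. Gata4 reached 441 ± 13.6 CPM (SD, n = 2) in SCLCs against 6.69 ± 0.0618 in tc;Sf1ESCs, and Sox9 6.37 ± 2.41 against 0.136 ± 0.192 CPM. The factors lower in SCLCs than in both ESC lines were Nr0b1 (3.18 ± 0.488 CPM against 77.6 ± 1.68 in tc;Sf1ESCs), Zfpm2, a partner of GATA4 (0.242 ± 0.0646 against 2.91 ± 0.382), and Cbx2 (25.6 ± 2.99 against 54.5 ± 0.959). Against tod-PGCLCs 4 were higher and 5 lower, the latter including Wt1, with 60 and 23 counts in SCLCs and 332 and 293 in tod-PGCLCs, and Dmrt1. Of 22 other Sertoli products, Defb19, Eppin, Hsd17b3, Rhox8 and Shbg were at 0 in both SCLC libraries. All 13 visceral endoderm markers (genes of the yolk sac lineage, such as Cubn and Amn) had higher counts in both SCLC libraries than in any ESC library. For 5 of them (Afp, Apoa1, Apoa4, Foxa2 and Ttr) the mean count exceeded 10, the limit for testing, only through the SCLC libraries, which fixed their direction, and the other 8 were called higher in SCLCs than in either ESC line. Together the 13 summed to 2880 and 4910 CPM in SCLCs, 17.4 to 20.5 CPM in the 4 ESC libraries and 41.4 and 51.4 CPM in tod-PGCLCs. None of the 13 was at 0 in an SCLC library. The SCLC libraries thus held RNA of genes on both lists, of which the Sertoli list is no independent check. Bulk samples do not show whether the same cells carried both. The part of visceral endoderm in the results on the 8 genes was not tested.

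**Figure D1:**
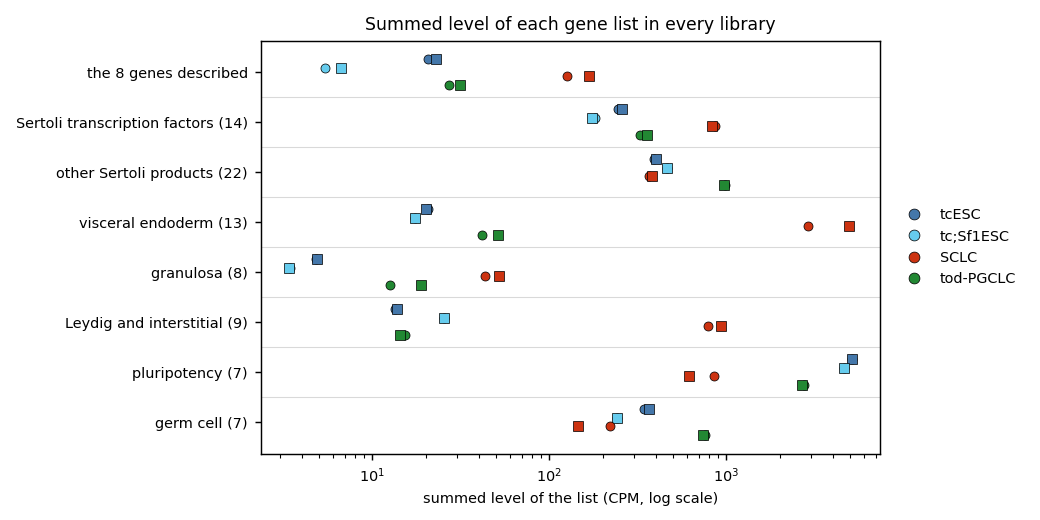
Summed level of 8 gene lists in every library, in CPM on a log axis. Circles are replicate 1 and squares replicate 2, and colours give the group. The SCLC libraries (red) lie above the others for the 8 genes described (126 and 168 CPM, mostly Clu and Vnn1) and for visceral endoderm (2880 and 4910 CPM). They also lie above them for Sertoli transcription factors, granulosa, and Leydig and interstitial markers. They lie below the others for other Sertoli products (364 and 381 CPM), pluripotency (856 and 617 CPM) and germ cell markers (219 and 146 CPM).

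Taken per kilobase of exon, which allows genes to be set side by side, 2 of the 8 genes led in SCLCs. Vnn1 stood at 22.2 ± 6.39 CPM per kb (SD, n = 2) and Clu at 21.1 ± 1.92, followed by Inha at 6.08 ± 0.703 and Inhbb at 2.46 ± 1.26. Ptgds (0.409 ± 0.377), Amh (0.354 ± 0.169) and Cst9 (0.276 ± 0.0942) were all under 1 CPM per kb, and Fshr was at 0. In tcESCs the order was another, with Inhbb highest at 3.40 ± 0.324 CPM per kb, then Clu at 1.40 ± 0.0144 and Vnn1 at 0.696 ± 0.176. Fshr was the only one of the 8 with under 3 counts in every library. In bulk samples, fewer cells of a type and less RNA per cell cannot be told apart.

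**Figure D2:**
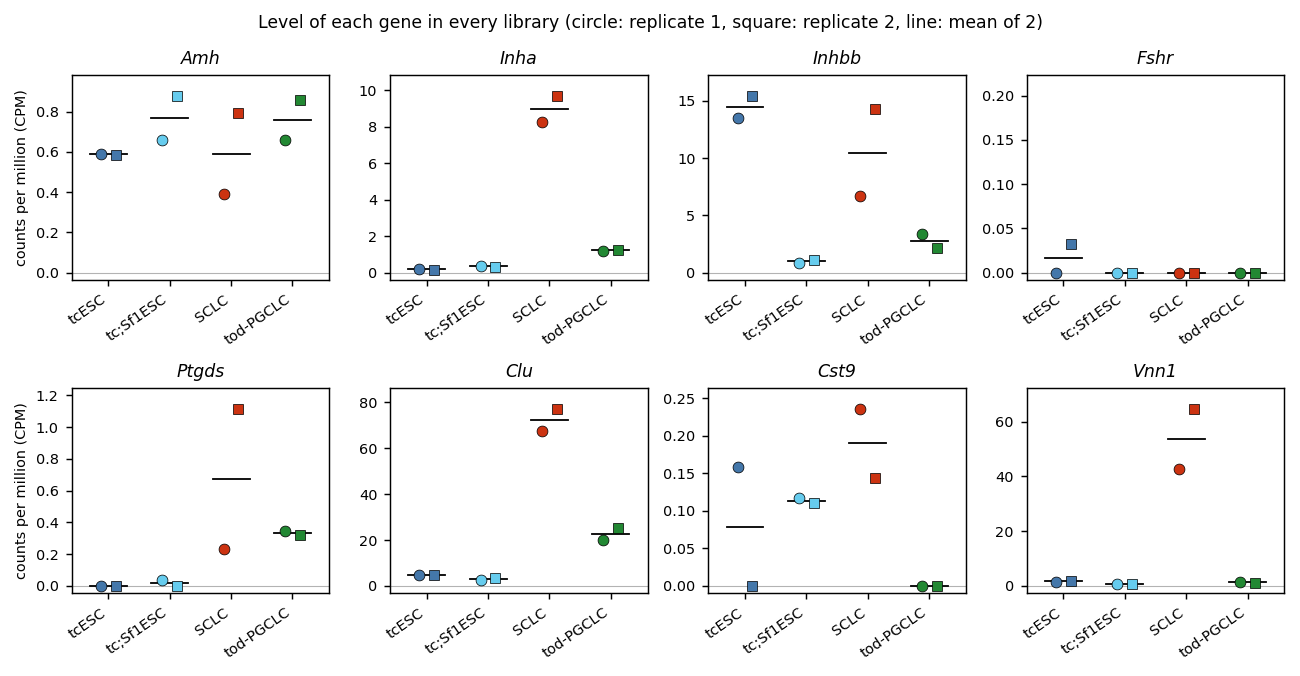
CPM of each of the 8 genes in every library, with 1 panel a gene and its own linear axis. Circles are replicate 1, squares replicate 2 and lines the mean of 2 libraries. Inha, Clu and Vnn1 are highest in SCLCs, Inhbb is high in tcESCs (13.5 and 15.4 CPM), Amh overlaps between SCLCs and each other group, and Fshr has 1 count in 1 tcESC library.

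The test was the quasi-likelihood one of edgeR, with p-values adjusted after Benjamini and Hochberg over all genes of a mean count above 10, and a gene was called with a fold change over 2 and an adjusted p under 0.05. 5 of the 8 genes could be tested, while Ptgds, Cst9 and Fshr lay below the count filter. Inha, with 5 to 10 counts in the ESC libraries, passed only through SCLCs in the fit of SCLCs and the ESC lines, so that its direction between them was fixed and it is counted apart. Between SCLCs and tcESCs 2 of the other 4 genes were called, both higher in SCLCs (Clu and Vnn1), where 42.7% of the 16481 genes tested were called, 24.3% higher and 18.3% lower. Between SCLCs and tc;Sf1ESCs, the line they were made from, 3 of the other 4 were called higher (the same 2 and Inhbb), with 42.2% of all genes called, 24.1% higher and 18.1% lower. The counts of called genes in every gene list are to be read against these shares, and Fstl3, Ctsh and Cldn11 of those lists, like Inha, Emx2 and Sox9, passed the filter only through SCLCs. Cst13 passed it only through tcESCs and Bmpr1b only through tc;Sf1ESCs. In the fit with tod-PGCLCs, Dhh and Hsd17b1 passed only through tod-PGCLCs. Between tc;Sf1ESCs and tcESCs, which differ in the transgene and in cloning, Inhbb and Vnn1 were called lower in tc;Sf1ESCs, with 11.7% of all genes called, 6.04% higher and 5.62% lower. Both comparisons of SCLCs with ESCs share the SCLC libraries.

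**Figure D3:**
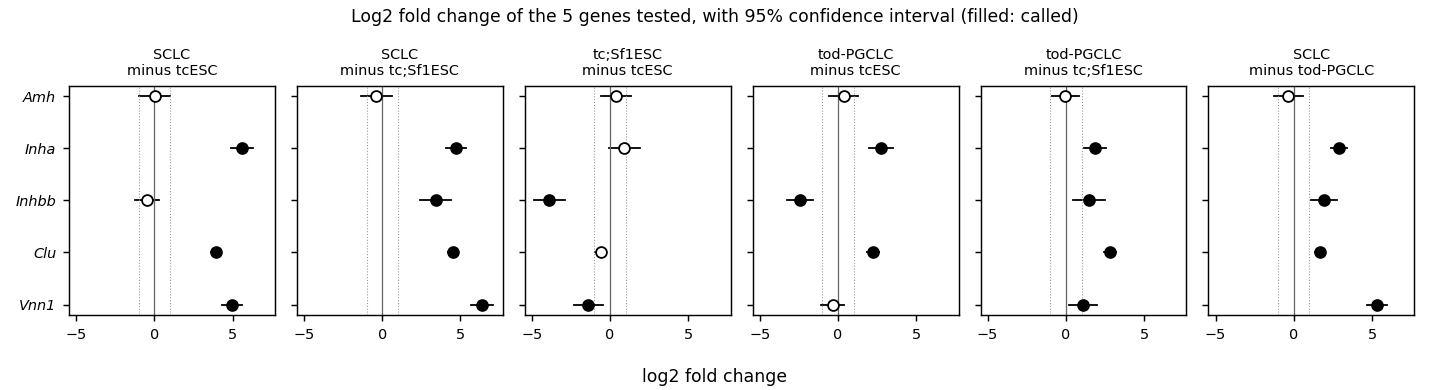
Log2 fold change (x axis) of the 5 genes tested in 6 comparisons, first group minus second, with 95% confidence intervals. Filled points were called, open points were not, and dotted lines mark a 2-fold change. Amh is open in all 6 panels, and Inhbb changes sign between the panels.

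Amh (ENSMUSG00000035262, chr10:80805243-80807648, plus strand, GRCm38) encodes the hormone that defines the fetal Sertoli cell. It had 15 and 18 counts in tcESCs, 17 and 24 in tc;Sf1ESCs, 10 and 22 in SCLCs and 19 and 24 in tod-PGCLCs. The SCLC libraries were the lowest and the third highest of the 8 in CPM, and their range covered both tcESC libraries. Between SCLCs and tcESCs the log2 fold change was 0.02 (95% confidence interval -0.99 to 1.03, edgeR adjusted p = 0.965), so that a change in either direction of up to about 2-fold lay within the interval. Against tc;Sf1ESCs it was -0.36 (-1.35 to 0.62, edgeR adjusted p = 0.456). The sign of these small values turned with several settings. The end of Sf3a2, a splicing factor gene on the same strand, lies 318 bases before Amh, and Sf3a2 stood at 150 to 164 CPM in the 4 ESC libraries, 94.1 and 96.7 in SCLCs and 102 and 107 in tod-PGCLCs. Whether reads from Sf3a2 contribute to the Amh counts was not tested.

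Amhr2, the gene of the AMH receptor, had 79 and 115 counts in tcESCs, 121 and 123 in tc;Sf1ESCs, 71 and 47 in SCLCs and 101 and 96 in tod-PGCLCs. The SCLC libraries were the lowest of the 8. Amhr2 was lower in SCLCs than in tc;Sf1ESCs by a log2 fold change of -1.04 (SE 0.27, edgeR adjusted p = 0.00996), and against tcESCs it was not called (-0.62, edgeR adjusted p = 0.0748).

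The inhibin alpha gene was near the detection limit in the ESC lines and higher in SCLCs. Inha (ENSMUSG00000032968, chr1:75507077-75510366, plus strand) had 5 and 5 counts in tcESCs, 10 and 8 in tc;Sf1ESCs, 210 and 270 in SCLCs and 35 and 35 in tod-PGCLCs. The groups did not overlap, and SCLCs stood far above the rest. In SCLCs Inha reached 8.97 ± 1.04 CPM (SD, n = 2), a log2 fold change of 5.62 (SE 0.29) from tcESCs and of 4.71 (SE 0.26) from tc;Sf1ESCs, given as a description because the count filter fixed its direction. Over every gene with at least 1 count, a limit that Inha met without SCLCs, it was called by edgeR (5.60 and 4.69) and by DESeq2 (5.64 and 4.73). Between the ESC lines it was not called (0.91, 95% confidence interval -0.09 to 1.91, edgeR adjusted p = 0.187). Its promoter window, which lies inside the gene as GENCODE places it, is the one printed above with the AGGTCA half-site.

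Inhbb, the gene of the beta B subunit (ENSMUSG00000037035, chr1:119415465-119422248, minus strand), took another course. It had 342 and 475 counts in tcESCs, 21 and 31 in tc;Sf1ESCs, 170 and 397 in SCLCs and 97 and 59 in tod-PGCLCs. The tc;Sf1ESC libraries were the lowest, and the SCLC libraries overlapped those of tcESCs. Inhbb fell from 14.5 ± 1.38 CPM in tcESCs to 0.975 ± 0.225 in tc;Sf1ESCs (log2 fold change -3.88, SE 0.41, edgeR adjusted p = 0.000737), while the median over the 1016 genes tested on chromosome 1 was 0 between these lines. In SCLCs, made from the same clone, it was higher than in tc;Sf1ESCs by 3.42 on the log2 scale (SE 0.42, edgeR adjusted p = 0.000228), which came to 2.76 without SCLC replicate 2. Against tcESCs the log2 fold change was -0.46 (95% confidence interval -1.23 to 0.30, edgeR adjusted p = 0.233), but 1 library decided it: it was -1.12 and called without SCLC replicate 2, and -0.0094 without SCLC replicate 1.

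Of the other activin subunits, Inhba had 24 and 13 counts in SCLCs, at most 2 in tod-PGCLCs and none in the ESC libraries, and both Inhbc and Inhbe had at most 1 count in either SCLC library. Among 22 genes of AMH, activin and inhibin signalling other than the 8, 18 were tested, and in SCLCs 7 were higher and 1 lower than in tcESCs, and 6 higher and 2 lower than in tc;Sf1ESCs. These 8 of 18 in each comparison are close to the 42.7% and 42.2% of all genes called, so the counts are no result about this list. The median log2 fold change, with Fstl3 and Bmpr1b included, was 0.79 and 0.75, against 0.05 and 0.02 over all genes tested. Tgfbr3, the inhibin co-receptor betaglycan, had 388 and 410 counts in tcESCs, 115 and 134 in tc;Sf1ESCs, 1956 and 2896 in SCLCs and 311 and 514 in tod-PGCLCs. Like Inhbb it was lower in tc;Sf1ESCs than in tcESCs (-1.61, SE 0.18, edgeR adjusted p = 0.000943) and higher in SCLCs than in tc;Sf1ESCs (4.27, SE 0.18, edgeR adjusted p = 1.45e-06). The activin antagonist Fst also rose, from 22.6 ± 0.800 CPM in tc;Sf1ESCs to 82.7 ± 16.6 in SCLCs, and so did the signal transducer Smad2, from 54.7 ± 1.83 to 130 ± 5.86 CPM. Smad7, an inhibitor of this signalling, was lower in SCLCs than in tcESCs (-1.24 on the log2 scale). The activin receptor genes Acvr2a and Acvr2b had log2 fold changes of 0.77 and 0.72 from tc;Sf1ESCs to SCLCs, under 2-fold, and were not called (edgeR adjusted p = 0.000194 and 0.00225).

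Fshr (ENSMUSG00000032937, chr17:88984952-89200675, minus strand) had 1 count in tcESC replicate 2 and 0 counts in the other 7 libraries. At the depth of the SCLC libraries a count of 0 allows up to 0.118 CPM in replicate 1 and 0.108 in replicate 2, so a difference between the groups was not detectable. The FSH beta gene Fshb and the related receptor gene Lhcgr were at 0 in all 8 libraries, and the alpha subunit gene Cga had at most 5 counts, all in ESC libraries. Of 14 genes of FSH receptor signalling 10 were tested, and 3 were higher in SCLCs than in both ESC lines with none lower, a smaller share than the 42.7% and 42.2% of all genes called and close to the 24.3% and 24.1% called higher. The 3 were Gnas, which encodes the stimulatory G protein alpha subunit (8.53 ± 1.20 CPM in SCLCs, 3.75 ± 0.134 in tc;Sf1ESCs), the arrestin gene Arrb1 (31.5 ± 5.47 and 9.97 ± 0.962) and the protein kinase A regulatory subunit gene Prkar2b (6.11 ± 1.78 and 1.65 ± 0.303). The 10 genes had a median change of 0.27 on the log2 scale from tcESCs and 0.36 from tc;Sf1ESCs, against 0.05 and 0.02 over all genes tested.

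Ptgds (ENSMUSG00000015090, chr2:25466709-25470046, minus strand), whose enzyme makes the prostaglandin D2 that is known to sustain Sox9 in the fetal testis, was close to the detection limit. It had 0 and 0 counts in tcESCs, 1 and 0 in tc;Sf1ESCs, 6 and 31 in SCLCs and 10 and 9 in tod-PGCLCs. The ESC libraries were the lowest 4, and the SCLC libraries lay on either side of tod-PGCLCs. In SCLCs Ptgds (0.675 ± 0.621 CPM) exceeded tcESCs and was at least 6.25-fold higher, taken against 3 counts in each tcESC library, and this bound was 10.3 without SCLC replicate 1 and 2.18 without SCLC replicate 2. The ratio to the single count in tc;Sf1ESCs was 36.8, with a 95% counting interval of 6.21 to 1493 that leaves out the spread between libraries. It was 59.1 without SCLC replicate 1, 12.5 without SCLC replicate 2 and 17.9 without tc;Sf1ESC replicate 2, and had no value without tc;Sf1ESC replicate 1, which held the only count.

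Of 12 genes of prostaglandin synthesis and receptors 9 were tested. In SCLCs 3 were higher and 2 lower than in tcESCs, and 1 was higher and 2 lower than in tc;Sf1ESCs. The prostaglandin transporter gene Slco2a1 reached 57.0 ± 9.73 CPM in SCLCs against 12.4 ± 0.307 in tcESCs and 2.26 ± 0.0637 in tc;Sf1ESCs. The cyclooxygenase gene Ptgs1 went the other way, from 7.42 ± 0.660 CPM in tcESCs and 11.1 ± 0.0469 in tc;Sf1ESCs to 1.49 ± 0.118 in SCLCs. Ptges, the prostaglandin E synthase gene, was highest in tcESCs (48.4 ± 0.225 CPM), then tc;Sf1ESCs (5.17 ± 0.113), then SCLCs (2.36 ± 0.0663). The prostaglandin D2 receptor gene Ptgdr was at 0 in both SCLC libraries and Ptgdr2 had 2 and 8 counts there.

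Clu (ENSMUSG00000022037, chr14:65968483-65981547, plus strand) encodes a secreted chaperone that Sertoli cells release. It had 121 and 149 counts in tcESCs, 72 and 97 in tc;Sf1ESCs, 1727 and 2145 in SCLCs and 582 and 711 in tod-PGCLCs. No 2 groups overlapped, and the order was SCLC, tod-PGCLC, tcESC, tc;Sf1ESC. SCLCs stood at 72.4 ± 6.61 CPM, with a log2 fold change of 3.91 (SE 0.13, edgeR adjusted p = 6.10e-07) from tcESCs and 4.51 (SE 0.14, edgeR adjusted p = 4.74e-07) from tc;Sf1ESCs. Between the ESC lines it differed by -0.60 (SE 0.15, edgeR adjusted p = 0.0230), within 2-fold and therefore not called.

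Of 5 genes that encode receptors for clusterin 4 were tested, and Lrp2 and Vldlr were higher in SCLCs than in both ESC lines while Lrp1 was lower. Lrp2, which encodes megalin, had 361 and 363 counts in tcESCs, 174 and 212 in tc;Sf1ESCs, 25441 and 42515 in SCLCs and 1925 and 1728 in tod-PGCLCs. The log2 fold change from tc;Sf1ESCs to SCLCs was 7.44 (SE 0.26, edgeR adjusted p = 6.89e-07). Megalin works with cubilin, and Cubn, which is on the visceral endoderm list, had 27982 and 61312 counts in SCLCs and 11 to 16 in the ESC libraries. Lrp1 had 51.5 ± 14.7 CPM in SCLCs and 130 ± 5.24 in tc;Sf1ESCs, and Lrp8 had 24.7 ± 6.46 and 11.1 ± 0.968.

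Cst9 (ENSMUSG00000027445, chr2:148835147-148838738, plus strand), a cystatin gene known from fetal Sertoli cells, was barely detected. It had 4 and 0 counts in tcESCs, 3 and 3 in tc;Sf1ESCs, 6 and 4 in SCLCs and 0 and 0 in tod-PGCLCs. The SCLC libraries overlapped those of tcESCs. The ratio of SCLCs to tcESCs was 2.63 with a 95% counting interval of 0.759 to 11.5, and that to tc;Sf1ESCs was 1.66 with an interval of 0.546 to 5.55. As each library was left out the first ranged from 1.19 (without tcESC replicate 2) to 3.30 (without SCLC replicate 2) and had no value without tcESC replicate 1, where tcESCs were at 0, and the second from 1.27 to 2.08, so that no difference was detectable at this depth. The testis cystatin gene Cst12 and also Cst8 and Cst11 were at 0 in all 8 libraries.

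Cst13, the nearest gene to Cst9, had 28 and 32 counts in tcESCs, 8 and 6 in tc;Sf1ESCs and none in SCLCs or tod-PGCLCs. Cystatins inhibit cysteine proteases. Of the 14 genes of this list 7 were tested, and Cst3, Ctsb, Ctsh, Ctsl and Lgmn were higher in SCLCs than in both ESC lines, with Cst13 lower. Ctsh had enough counts for the test only through SCLCs, and Cst13 only through tcESCs. This fixed the direction of Ctsh against both lines and that of Cst13 against tcESCs. Cathepsin L (Ctsl) stood at 2493 ± 617 CPM in SCLCs and 225 ± 5.57 in tc;Sf1ESCs, cathepsin B (Ctsb) at 856 ± 134 and 326 ± 2.38, and legumain (Lgmn) at 935 ± 30.9 and 53.1 ± 1.35. Other proteases of the list were low in SCLCs and not tested, with 10 and 31 counts of Ctss and 12 and 25 of Ctsk. With Ctsh and Cst13 included, the 7 genes had a median of 3.21 on the log2 scale from tcESCs and 2.73 from tc;Sf1ESCs, which is a description only.

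Vnn1 (ENSMUSG00000037440, chr10:23894688-23905343, plus strand) encodes a membrane-anchored enzyme that splits pantetheine and is known from the fetal testis. It had 35 and 61 counts in tcESCs, 15 and 19 in tc;Sf1ESCs, 1091 and 1798 in SCLCs and 45 and 32 in tod-PGCLCs. SCLCs were far above all others, and tcESCs overlapped tod-PGCLCs. Vnn1 reached 53.7 ± 15.4 CPM in SCLCs, with a log2 fold change of 4.98 (SE 0.27, edgeR adjusted p = 3.89e-06) from tcESCs and 6.38 (SE 0.31, edgeR adjusted p = 2.40e-06) from tc;Sf1ESCs. Of the 5 genes tested it had the largest change between SCLCs and tc;Sf1ESCs. Its lower level in tc;Sf1ESCs than in tcESCs (-1.40, SE 0.39, edgeR adjusted p = 0.0323) was no longer called when any 1 of those 4 libraries was left out, with values of -1.63 without tcESC replicate 1, -1.11 without tcESC replicate 2, -1.28 without tc;Sf1ESC replicate 1 and -1.53 without tc;Sf1ESC replicate 2.

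The neighbouring paralogue Vnn3 had 1 and 1 counts in SCLCs and 0 in the other 6 libraries. Of 9 genes of pantetheine and coenzyme A metabolism 8 were tested, with 2 higher and 3 lower in SCLCs than in tcESCs and 0 higher and 3 lower than in tc;Sf1ESCs. The pantothenate kinase gene Pank3 had 175 ± 9.47 CPM in SCLCs and 87.0 ± 1.80 in tcESCs, and Pank4 54.5 ± 10.4 and 23.6 ± 1.46. The vitamin transporter gene Slc5a6 was lower in SCLCs, at 26.3 ± 7.05 CPM against 61.5 ± 0.650 in tcESCs. The median of the list was 0.11 from tcESCs and -0.07 from tc;Sf1ESCs, close to that of all genes.

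**Figure D4:**
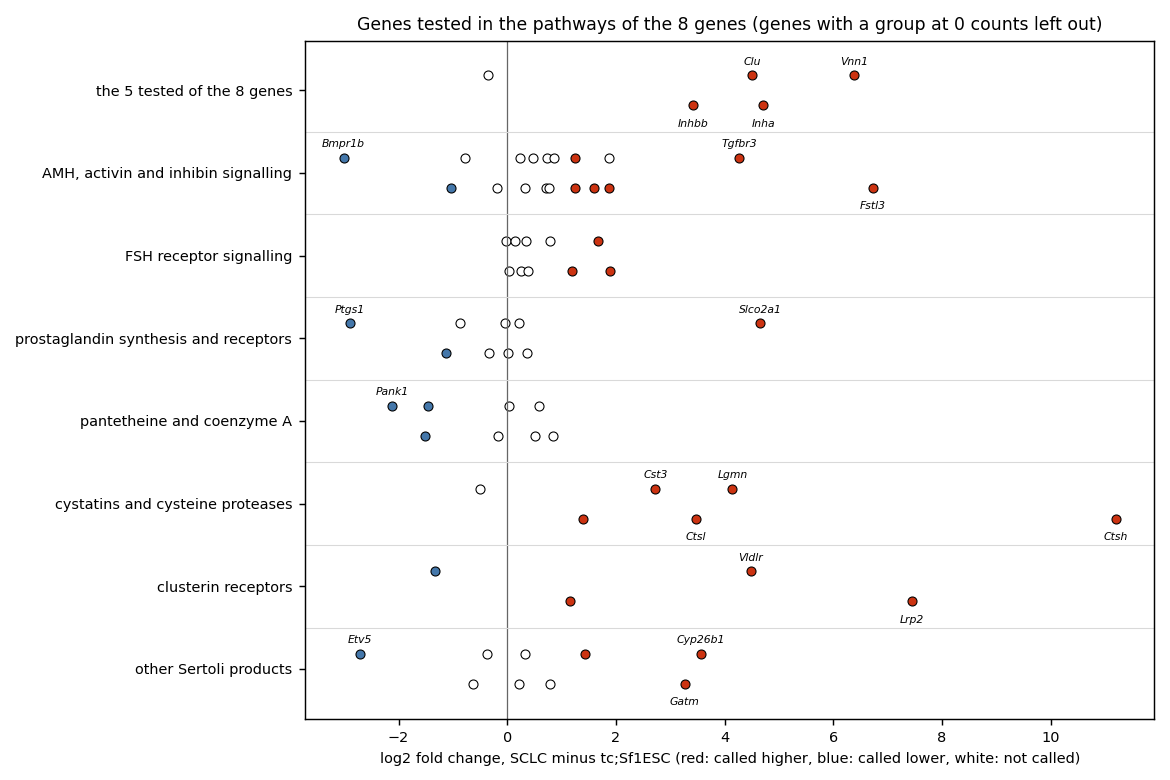
Log2 fold change from tc;Sf1ESCs to SCLCs (x axis) of each tested gene in 8 groups of genes, with genes at 0 counts in a whole group and 1 gene that is not reported here left out. Red points were called higher, blue points lower and white points not called, and genes past 2 on the log2 scale in either direction are named. The called genes of the cysteine protease and clusterin receptor groups lie mostly to the right, while the coenzyme A group has 3 called genes, all on the left.

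The ratio between the 2 SCLC libraries varied among the 8 genes. Replicate 2 had 1.14 times the CPM of replicate 1 for Clu, 1.18 times for Inha and 1.51 times for Vnn1, but 2.02 times for Amh, 2.14 times for Inhbb and 4.73 times for Ptgds, and 0.611 times for Cst9. The summed visceral endoderm markers were 1.70 times as high in replicate 2. The part of this difference in the levels of the 8 genes was not tested.

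In tod-PGCLCs, the germ cell-like cells, 4 of the 5 genes tested were called in at least 1 comparison. Clu (log2 fold change 2.24, SE 0.16, edgeR adjusted p = 6.39e-06) and Inha (2.75, SE 0.34, edgeR adjusted p = 0.000148) were higher than in tcESCs and Inhbb was lower (-2.40, SE 0.37, edgeR adjusted p = 0.000503), where 29.4% of 16707 genes were called, 18.1% higher and 11.2% lower. Against tc;Sf1ESCs Clu (2.84), Inha (1.84), Inhbb (1.48) and Vnn1 (1.07) were all called higher, with 32.7% of all genes called, 19.4% higher and 13.3% lower. The calls of Inhbb and Vnn1 in this comparison were lost without tc;Sf1ESC replicate 1 (1.24 and 0.93) or tod-PGCLC replicate 1 (1.11 and 0.84), and that of Vnn1 also without tc;Sf1ESC replicate 2 (1.19). Ptgds was at least 3.09-fold higher in tod-PGCLCs than in tcESCs, and its ratio to tc;Sf1ESCs was 17.7, with a counting interval of 2.82 to 736, or 8.59 without tc;Sf1ESC replicate 2 and no value without tc;Sf1ESC replicate 1. Visceral endoderm markers moved with these genes, with 7 of 13 higher and 1 lower in tod-PGCLCs than in tcESCs and 9 higher and 1 lower than in tc;Sf1ESCs, and their part was not tested. Of 7 germ cell markers 4 were higher and none lower than in tcESCs, and 5 higher and 1 lower than in tc;Sf1ESCs. Prdm1, whose reporter was used for the sort, is among those higher in both. They summed to 759 and 740 CPM in tod-PGCLCs and 240 to 365 CPM in the ESC libraries. Amh did not differ detectably (0.36, 95% confidence interval -0.55 to 1.28 from tcESCs).

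SCLCs and tod-PGCLCs were compared directly, with 38.0% of all genes called, 19.5% higher and 18.5% lower in SCLCs. 4 of the 8 genes were higher in SCLCs: Vnn1 by 5.31 on the log2 scale (SE 0.27, edgeR adjusted p = 6.45e-07), Inha by 2.86 (SE 0.22, edgeR adjusted p = 6.06e-06), Inhbb by 1.94 (SE 0.37, edgeR adjusted p = 0.00134) and Clu by 1.67 (SE 0.14, edgeR adjusted p = 8.79e-06). Without SCLC replicate 2 the value for Inhbb was 1.29, still called. For Ptgds the ratio was 2.08 with a counting interval of 1.17 to 3.83, but the SCLC libraries lay on both sides of the tod-PGCLC ones, and the ratio was 3.34 without SCLC replicate 1 and 0.705 without SCLC replicate 2. Cst9 was at least 1.80-fold higher in SCLCs against 3 counts in each tod-PGCLC library, a bound that rests on 6 and 4 counts and on no test.

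Of the 22 other Sertoli products, 13 were tested in tod-PGCLCs and 7 were higher and 1 lower than in tcESCs, among them the homeobox gene Rhox5 (331 ± 5.96 CPM against 27.9 ± 0.576) and Kitl, the ligand of the receptor KIT (19.1 ± 4.96 against 3.52 ± 0.124). Hsd17b1 is counted among the higher genes, but it had enough counts for the test only through tod-PGCLCs (17 in each library), which fixed its direction. Among SCLCs and the ESC lines 11 were tested, and 4 were higher and 2 lower in SCLCs than in tcESCs, with Rhox5 at 256 ± 24.9 CPM in SCLCs and 95.8 ± 5.36 in tc;Sf1ESCs, Kitl at 8.39 ± 3.22 and Etv5, a transcription factor gene that was lower, at 46.1 ± 22.6 against 303 ± 0.370 in tcESCs. Against tc;Sf1ESCs 4 were also higher, with Gatm in place of Kitl, and Etv5 was again lower. Kitl had 285 and 297 counts in tc;Sf1ESCs against 156 and 297 in SCLCs. In tc;Sf1ESCs it was called higher than in tcESCs, and was not called between tc;Sf1ESCs and SCLCs (-0.38, edgeR adjusted p = 0.205). Between SCLCs and tod-PGCLCs 3 of the 13 were higher and 6 lower in SCLCs. Dhh is counted among the lower genes, but it had enough counts for the test only through tod-PGCLCs (12 to 17 counts), so its call is a description. Cldn11, a tight junction gene, had 60 and 19 counts in SCLCs and none in the ESC libraries.

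Over the 8 libraries the levels of Inha, Clu and Vnn1 (log2 CPM) ran alongside each other, with Pearson's r of 0.949 for Inha and Clu, 0.878 for Inha and Vnn1 and 0.845 for Clu and Vnn1, as a description over libraries that fall into 4 groups. Inhbb had r of 0.217 with Inha, 0.371 with Clu and 0.586 with Vnn1, and Amh had r from -0.402 to -0.200 with the others. The genes most like each of the 5 in pattern were, by the same measure over 16706 other genes, Rasal1 for Amh (r = 0.971), Nfxl1 for Inha (0.998), Slk for Inhbb (0.979), Msrb3 for Clu (0.999) and Mir22hg for Vnn1 (0.999). Next came Gm12231 and Arhgdia for Amh, AU040320 and Klhl36 for Inha, Trim44 and Etfrf1 for Inhbb, Vmp1 and Klf11 for Clu, and Gfpt1 and Sp100 for Vnn1.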

How the data were processed

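Strand-specific poly-A RNA-sequencing libraries of 2 samples in each of 4 groups were used. Per the labels, the authors trimmed reads with Trim Galore, aligned them to GRCm38 with STAR 2.4.0 and counted them with HTSeq (Picard is also listed), and they deposited raw counts per Ensembl gene; the annotation release and strand setting of the counting are not given in the sources used here. Rows that name no gene (reads on no feature, ambiguous, unaligned or not unique) held 35.6 to 41.6% of each file and were left out. Genes with near-identical copies, or with exons that overlap those of another gene, can therefore be undercounted.

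Gene names, positions and exon lengths came from GENCODE M21, which named 45143 of the 46078 listed genes, and promoters from RefSeq. The counts were fitted with edgeR 4.0.16 in R 4.3.3 (TMM, quasi-likelihood test): tcESCs, tc;Sf1ESCs and SCLCs in a joint fit of 6 libraries and 16481 genes whose mean count exceeded 10, and tod-PGCLCs in a fit of all 8 libraries and 16707 genes. Folds against a group at 0 counts are bounds against 3 counts per library, and ratios of low counts have exact 95% counting intervals. PCR copies count as separate reads. Log2 CPM for correlations used a prior count of 2. The 8 genes and all lists were chosen with earlier results of these data known. Named beside the 8 genes were, per list, up to 3 called genes with the most counts, receptors and ligands of the products, markers at 0 to 3 counts, and the 3 genes most like each in pattern. Further genes were named after their values were seen (Inhba, Inhbc, Inhbe, Cldn11, Cst3, Ctsh, Cst13, Ptgdr, Ptgdr2, Vldlr, Sox9, Zfpm2, Cbx2, Wt1, Dmrt1, Ctss, Ctsk, Tfap2a, Emx2, Nr5a1, Gatm, Afp, Apoa1, Apoa4, Foxa2, Ttr, Wnt4, Cyp11a1, Cyp17a1, Hand1, Prdm1, Vnn3, Bmpr1b, Dhh, Hsd17b1). Alternatives included DESeq2 1.42.0, other filters and normalizations, and leaving out each library. The edgeR test was also run on simulated counts with the same spread in every group and changes planted only in genes of higher counts. The SCLC libraries varied more than the others and some of the 8 genes had low counts, so that run does not cover these cases. Embryonic Sertoli cells were not analysed here.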

Additional observations from a re-analysis of the deposited data

How the results depend on the processing

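Inha and Clu kept their calls and non-calls in every comparison under every alternative run, although for Inha the count filter fixed the direction between SCLCs and the ESC lines. Of the 8 genes, those called between tc;Sf1ESCs and tcESCs went from 2 to 1 with an adjusted p limit of 0.01 or a test against a 2-fold change, and ranged from 1 to 2 as each library was left out, with 1 without any of the 4 libraries compared. Between tod-PGCLCs and tc;Sf1ESCs they went from 4 to 2 with either of those settings and ranged from 2 to 4 as each library was left out, with 2 without tc;Sf1ESC replicate 1 or tod-PGCLC replicate 1. Over the 8 lists of other genes (7 of pathways and products and 1 of Sertoli transcription factors), the test against a 2-fold change left 7 of 13 calls between the ESC lines and 20 of 35 between tod-PGCLCs and tcESCs, and the count between the ESC lines ranged from 8 (without tcESC replicate 2) to 18 as each library was left out. Among all genes the test against a 2-fold change left 594 of 1922 calls between the ESC lines and 3078 of 4906 between tod-PGCLCs and tcESCs, and leaving out each library gave 1119 to 2304 in the first, with 1119 without tcESC replicate 2, 1135 without tcESC replicate 1, 1206 without tc;Sf1ESC replicate 1 and 1240 without tc;Sf1ESC replicate 2. The 2-fold test asks more of the same values, and a left-out library leaves fewer samples. Some counts nevertheless rose as a library was left out, and the cause was not tested.

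The log2 fold change of Amh, called in no comparison, turned its sign in some settings. Between SCLCs and tcESCs it was -0.041 on library totals, -0.015 with the filterByExpr filter, -0.00039 over every gene with at least 1 count, -0.028 in a fit of the 4 libraries, and -0.58 (without SCLC replicate 2) to 0.44 (without SCLC replicate 1) as each library was left out. Leaving out each library gave -0.97 to 0.052 between SCLCs and tc;Sf1ESCs, and -0.93 to 0.071 between SCLCs and tod-PGCLCs, in both with replicate 2 of the SCLCs left out at the low end and replicate 1 at the high end. Between tod-PGCLCs and tc;Sf1ESCs it was 0.060 on library totals and -0.23 to 0.17 as each library was left out. The cause was not tested.

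In a fit with a replicate block, 3, 4 and 2 of the 8 genes (Inha included) were called between SCLCs and tcESCs, SCLCs and tc;Sf1ESCs, and the ESC lines, and 3, 4 and 4 in the comparisons of tod-PGCLCs with tcESCs, tc;Sf1ESCs and SCLCs, the same counts as without it. Libraries of the same number did not deviate together across genes (correlation -0.0259 to 0.0624). With 2 libraries a group this cannot show whether same-numbered samples were prepared together. Levels on library totals were 0.958 to 1.05 times those on TMM sizes. With a prior count of 0.25, 13 of the 15 genes of like pattern were shared. Over every gene with at least 1 count, edgeR called Cst9 between SCLCs and tod-PGCLCs (adjusted p = 0.0125) and Ptgds between tod-PGCLCs and tc;Sf1ESCs (0.00124) but DESeq2 did not (adjusted p = 0.0856 and 0.0648). Both called Ptgds higher in SCLCs than in tcESCs and tc;Sf1ESCs (DESeq2 adjusted p = 0.00352 and 0.0271). Both also called it higher in tod-PGCLCs than in tcESCs (DESeq2 adjusted p = 0.00928). Neither gene had the counts for the main test. Depth limits Ptgds, Cst9 and Fshr, and 2 libraries a group limit all else.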

Other observations

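Granulosa cells of the ovary also make inhibins and carry the FSH receptor. Of 8 granulosa markers 5 were tested, and 4 were higher and 1 lower in SCLCs than in tcESCs, and 3 higher and none lower than in tc;Sf1ESCs. Bmp2 had 837 and 1008 counts in SCLCs and 14 to 31 in the ESC libraries, and Irx3, a homeobox gene, 143 and 266 against 7 to 25. Foxl2, the defining transcription factor gene of granulosa cells, had 8 and 6 counts in SCLCs and 2 to 8 in the ESC libraries. The 8 markers summed to 43.2 and 52.1 CPM in SCLCs, 3.37 to 4.84 in the ESC libraries and 12.6 and 18.8 in tod-PGCLCs.

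Of 9 Leydig and interstitial markers, which summed to 785 and 936 CPM in SCLCs and 13.5 to 25.5 CPM in the ESC libraries, 6 were tested and 3 were higher and 1 lower in SCLCs than in tcESCs, and 3 higher and 2 lower than in tc;Sf1ESCs. Most of that sum was Pdgfra, a receptor gene of mesenchyme and of extraembryonic endoderm, with 838 ± 104 CPM (SD, n = 2). Star, a known Sf1 target of steroid synthesis, had 16.9 ± 0.881 CPM in tc;Sf1ESCs, 7.28 ± 0.0897 in tcESCs and 7.09 ± 1.82 in SCLCs. Of 6 trophectoderm markers, 5 were tested and 4 were higher in SCLCs than in tcESCs, but 3 higher and 1 lower than in tc;Sf1ESCs (Tfap2a, 1.73 ± 0.503 against 8.37 ± 0.0363 CPM), with 361 and 880 counts of Plac1 against 16 or fewer in each ESC library. Pluripotency markers were lower in SCLCs, 6 of 7 against either ESC line, with a summed 856 and 617 CPM left. Wnt4, Cyp11a1, Cyp17a1, Hand1 and Plac1 passed the count filter only through the SCLC libraries. The part of these other cell types in the results on the 8 genes was not tested.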
